A study of Homo sapiens with 4 samples.

Results

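Cytosolic DNA sensing was followed through 7 genes: the sensors CGAS, IFI16, AIM2 and ZBP1, the adaptor gene TMEM173, which encodes STING, and 2 genes that limit the pathway, TREX1 and ENPP1. They were chosen by symbol and matched by Ensembl identifier, and all 7 of 7 were among the 58735 genes of the count files; 5 of them had enough reads to be tested. The libraries came from A549, an established human lung adenocarcinoma line that the labels call alveolar basal epithelial cells. All 4 samples were infected with a lentivirus and labelled day 2: 2 libraries carried a control hairpin (shControl, genotype labelled WT) and 2 a hairpin against the RNA-binding protein gene RALY (shRALY, genotype labelled RALY knockdown). The sources used here do not say how many hairpin sequences were used or whether replicates were separate cultures, so each p-value rests on the spread among 4 libraries, and that spread may be technical.

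In this pathway cGAS binds DNA in the cytosol and makes the messenger cyclic GMP-AMP (cGAMP), which binds STING on the endoplasmic reticulum. STING then moves to the Golgi and recruits the kinase TBK1, which phosphorylates the transcription factor IRF3 and so switches on interferon genes. TREX1 is an exonuclease that removes DNA from the cytosol, and ENPP1 is a membrane enzyme that hydrolyses cGAMP outside the cell. IFI16 and AIM2 belong to the PYHIN family, whose HIN domains bind DNA; AIM2 assembles an inflammasome with the adaptor ASC and caspase-1. ZBP1 binds nucleic acids in the left-handed Z form and can signal to cell death through RIPK3. Many genes of this pathway are themselves induced by interferon.

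Reads were deposited as raw counts per gene, and totals ranged from 16745818 to 18632787 counts per library. Levels are given in CPM, a gene's counts scaled to library size after TMM normalisation, and 3 counts, the limit that a count of 0 allows, correspond to 0.163 to 0.183 CPM. RALY itself had 2208 and 2272 counts in shControl and 751 and 679 in shRALY, a 3.12-fold fall (adjusted p = 5.85e-11 by edgeR's quasi-likelihood test, with Benjamini-Hochberg adjustment over all genes tested). Of 15 immune cell markers, 5 were tested, and their summed level over the list was 12.4 to 15.2 CPM in shControl and 12.5 to 16.9 CPM in shRALY. CD3E, MS4A1, LYZ and FCGR3A had 0 counts in every library, and PTPRC, the pan-leukocyte marker, had 0, 0, 5 and 0. ITGAX was higher in shRALY (log2 1.84, edgeR adjusted p = 0.00109), whereas CD14 (log2 -0.15) and ITGAM (log2 -0.34) did not pass; the part of such cells in the results was not tested. Of 11 epithelial and A549 markers 8 were tested, 2 were higher and 1 lower, where 20.6% of all tested genes were higher and 20.4% lower. KRT19 rose 3.27-fold (edgeR adjusted p = 1.35e-11) and AKR1C1 fell 1.47-fold (edgeR adjusted p = 6.77e-05). KRT7 rose 1.19-fold (edgeR adjusted p = 0.0304), a call lost with library size alone, without shControl replicate 1 and without either shRALY library. KRT8, an epithelial keratin gene, stood at 3493 to 3954 CPM over the 4 libraries and ALDH1A1 at 5297 to 6379 CPM, and neither passed. The counts of KRT8 and AKR1C1 are uncertain, with 22.1% and 28.7% of their 50-base sequence words shared with other genes. The surfactant genes SFTPA1, SFTPB and SFTPC, which define alveolar type II cells, had at most 4 counts in any library.

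TREX1 is described first, since its position in the genome bears on whether its counts can be read. TREX1 (chr3:48465811-48467645, plus strand, GRCh38) lies wholly inside the exons of its neighbour ATRIP, whose protein partners the checkpoint kinase ATR: all 1515 TREX1 exonic bases are also ATRIP exonic bases on the same strand. The whole TREX1 coding sequence of 942 bases, as in transcript TREX1-205, occurs letter for letter in 3 of 10 ATRIP transcripts, and in ATRIP-201 it lies at bases 3591 to 4532 of 4580. The first 30 coding bases (chr3:48466656-48466685, plus strand, from the GENCODE release 29 transcripts) are shown because they belong to exons of both genes; capitals mark the start codon.
TREX1 coding start: ATGggctcgcaggccctgcccccggggccc

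**Figure D1:**
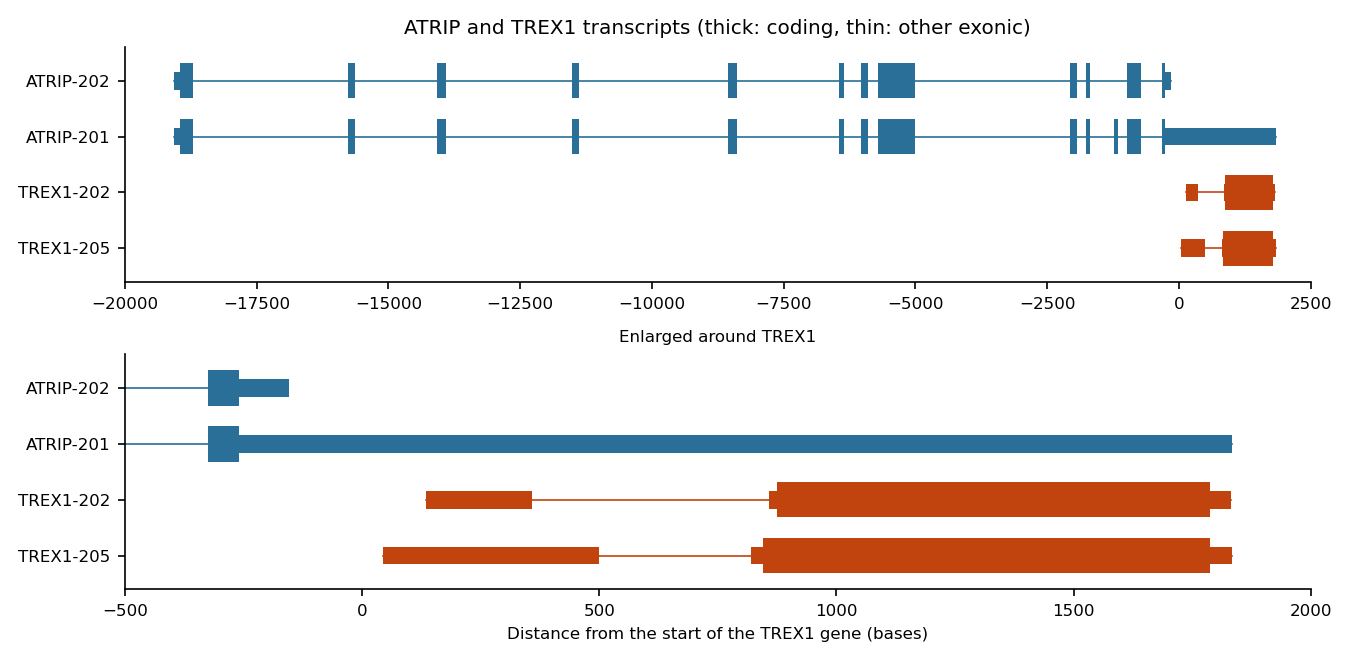
Exons of 2 ATRIP transcripts (blue) and 2 TREX1 transcripts (orange), with thick boxes for coding and thin boxes for other exonic bases, against distance in bases from the start of the TREX1 gene; the lower panel enlarges the TREX1 end. The last exon of ATRIP-201 runs over every TREX1 exon, while ATRIP-202 ends before TREX1 begins.

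TREX1 had 0 counts in all 4 libraries, and no level or change of TREX1 can be read from that. Across the annotation, 285 protein-coding genes lie wholly inside same-strand exons of other genes, and 233 of them (81.8%) had 0 counts in every library, with at most 13 counts in all for any of the 285. All 17 protein-coding genes that lie wholly inside opposite-strand exons, with no same-strand overlap, also had 0 counts. Among 11115 protein-coding genes with no overlap, 2436 (21.9%) had none. Genes placed like TREX1 thus had next to no reads in these files, whatever the strand of the gene that covers them. ATRIP, of which 27.9% of exonic bases are shared with TREX1, had 277 and 252 counts in shControl and 159 and 158 in shRALY. It fell 1.65-fold (log2 -0.73, SE 0.18; edgeR adjusted p = 0.0021), which did not pass once shRALY replicate 1 was left out (adjusted p = 0.0588). SHISA5, a minus-strand gene whose nearer end, its 3′ end, lies 153 bases beyond TREX1, rose from 107 ± 4.18 to 186 ± 7.98 CPM (SD, n = 2 libraries per group; edgeR adjusted p = 2.57e-06). Of the 8 tested neighbours within 100 kb, 4 were higher and 1, ATRIP, lower. Over all tested genes, 20.6% were higher and 20.4% lower, and with 8 genes nothing particular to this locus is read from the count. COL7A1, the gene of an anchoring collagen, rose 3.33-fold, while PFKFB4 and UCN2 were 1.37-fold and 1.59-fold higher; both calls were lost with DESeq2 and without shRALY replicate 2, and that of PFKFB4 also without shRALY replicate 1. PLXNB1 (log2 0.23), CCDC51 (log2 0.21) and TMA7 (log2 0.37) did not pass. The count of TMA7 is uncertain, with 53.2% of its exonic bases covered on the opposite strand.

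Of the other 6 genes, 2 sensors were higher, and neither the adaptor nor the cGAMP hydrolase passed the test. IFI16 rose 15.0-fold, ZBP1 went from 1 count to 55, CGAS fell to 76% of its control level by a call lost with DESeq2 and 5 other alternatives, TMEM173 and ENPP1 did not pass and AIM2 was not detected. In bulk RNA, fewer cells that express a gene and less RNA per cell cannot be told apart. Of the 5 genes tested, 2 were higher and 1 lower in shRALY. ZBP1 passed the filter on low counts through shRALY alone, so it could only be called higher. Without ZBP1, 4 were tested, 1 was higher and 1 lower. Of all 15912 genes tested, 41.0% were called by edgeR, 20.6% as higher and 20.4% as lower, and with 5 genes nothing particular to them is read from 3 calls. Rises and falls of at least 2-fold made up 6.99% and 6.57% of all tested genes; among the 5, IFI16 and ZBP1 rose that far and none fell that far. The shRALY libraries lay above both shControl libraries in 34.2% of tested genes and below both in 35.4%.

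**Figure D2:**
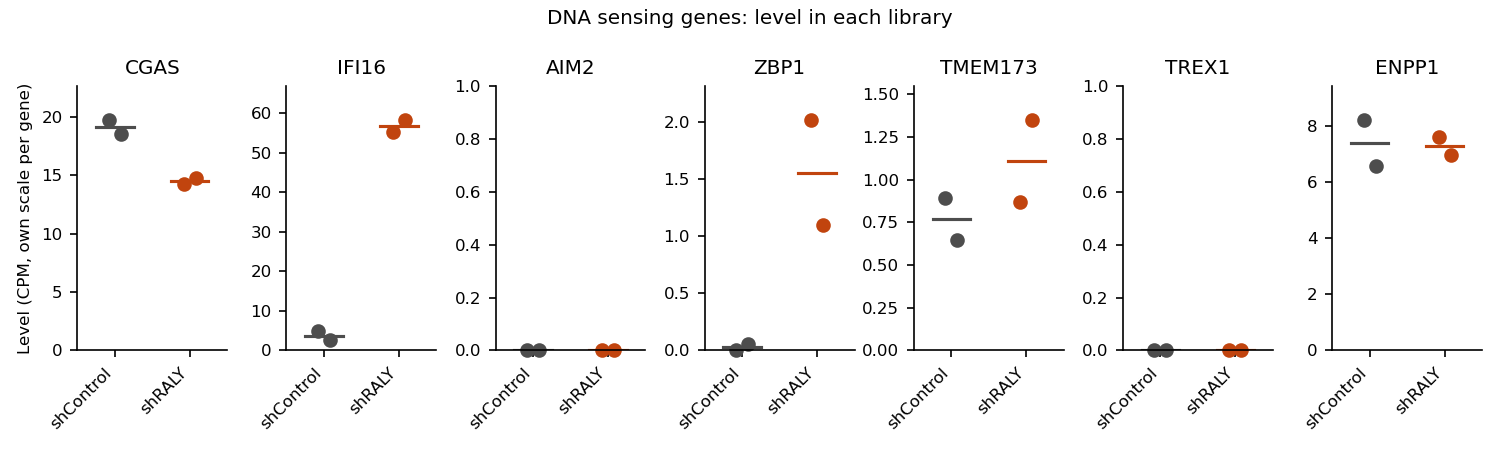
Level in CPM of each of the 7 genes in each library (points), with the mean of the 2 libraries of a group (line); each gene has its own linear scale from 0. IFI16 and ZBP1 are higher and CGAS is lower in both shRALY libraries, TMEM173 and ENPP1 overlap between groups, and AIM2 and TREX1 are at 0 throughout.

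IFI16, a DNA sensor of nucleus and cytosol (ENSG00000163565, chr1:158999968-159055155, plus strand), had 87 and 45 counts in shControl and 1015 and 951 in shRALY. That is 4.86 and 2.64 CPM against 55.2 and 58.1 CPM. The groups did not overlap, and the lower shRALY library stood far above the higher shControl library. The log2 fold change was 3.91 (SE 0.19, 95% interval 3.51 to 4.30; edgeR adjusted p = 1.14e-13), which placed IFI16 at rank 95 among the rises of the tested genes. The shControl libraries differed from each other 1.84-fold and the shRALY libraries 1.05-fold, and the log2 fold change was 4.41 without shControl replicate 1 and 3.56 without shControl replicate 2. None of its sequence words of 50 bases occurs in a transcript of another gene, so its reads can be told from those of its PYHIN relatives.

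AIM2 (chr1:159062484-159147096, minus strand) has IFI16 as its nearest protein-coding neighbour, 7329 bases away, and had 0 counts in every library. Its exons overlap those of no other gene and none of its sequence words is shared, so its level was below 0.163 to 0.183 CPM in each library, counting error alone considered. The other PYHIN genes of this cluster had almost no reads: MNDA, a gene of myeloid cells, had 0 counts throughout, and PYHIN1 had 1 count in shRALY replicate 1 and none elsewhere. IFI16 was thus the only one of the 4 PYHIN genes with reads enough to test in these libraries.

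The upstream sequences of these neighbours are shown because one gene rose and the other stayed at 0. RefSeq promoter windows (GRCh38.p14) were matched for 4 of the 7 genes, in 5 windows: IFI16, with 2 start sites, AIM2, TREX1 and ENPP1. The full 250 bases before each RefSeq start were searched on both strands for 3 motifs: the core of the interferon-stimulated response element (ISRE), which is GAAA, any 2 bases and GAAA; the STAT site GAS, TTCNNNGAA; and a form of the NF-kB site, which is GGGA, any base and TTTCC. Of all 35116 promoter windows of that length, 3.02% hold the ISRE core, 6.57% the GAS letters and 0.527% the NF-kB form. The single match in the 5 windows was an ISRE core in AIM2, at chr1:159076947-159076956 (TTTC, 2 bases and TTTC, the reverse reading), 190 bases before the RefSeq start. Neither IFI16 window held any of the 3 motifs. A match here is a description of letters, not of binding, and other elements or more distant ones were not searched. The lines give the IFI16 window at chr1:159009657-159009891 (plus strand) and the AIM2 window at chr1:159076902-159077016 (minus strand), with the matched motif in capitals. Each printed line stops where an annotated exon of its gene reaches into the window. That leaves 235 of 250 bases for IFI16 and 115 of 250 for AIM2, so the lines end before the RefSeq start. Both lines lie inside the annotated gene bodies, which begin further upstream.
IFI16 upstream: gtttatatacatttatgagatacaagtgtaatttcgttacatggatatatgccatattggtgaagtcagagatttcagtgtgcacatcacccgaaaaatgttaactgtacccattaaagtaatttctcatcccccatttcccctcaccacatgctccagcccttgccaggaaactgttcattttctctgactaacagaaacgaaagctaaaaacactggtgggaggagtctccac
AIM2 upstream: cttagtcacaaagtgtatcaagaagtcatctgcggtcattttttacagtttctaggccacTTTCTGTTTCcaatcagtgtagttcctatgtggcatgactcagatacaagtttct

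ZBP1 (ENSG00000124256, chr20:57603846-57620576, minus strand) had 0 and 1 counts in shControl and 37 and 18 in shRALY. In CPM this was 0 and 0.059 against 2.01 and 1.10, so the groups did not overlap, and the shRALY libraries differed 1.83-fold from each other. ZBP1 reached the test through its shRALY counts alone and could only be higher there. The ratio of 55 to 1 counts, scaled to library size, was 55.3 with a 95% counting interval of 9.53 to 2225, and the edgeR adjusted p was 5.44e-05. Its fitted log2 fold change was 5.46 and moved with the control library left out: without shControl replicate 2, which held the only control read, it was 7.79, and without shControl replicate 1 it was 4.57. On chromosome 20 its tested neighbours within 100 kb did not rise: PMEPA1 (log2 -0.33, edgeR adjusted p = 0.0107) and the antisense gene NKILA (log2 -1.02, edgeR adjusted p = 0.0167) were lower, and neither call held when either shRALY library was left out; that of NKILA also went with DESeq2 and without shControl replicate 2.

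CGAS (ENSG00000164430, chr6:73413515-73452276, minus strand), the enzyme that makes cGAMP, had 353 and 316 counts in shControl and 263 and 242 in shRALY. Its level was 19.7 and 18.6 CPM against 14.3 and 14.8 CPM, with no overlap between groups and little spread within them. The log2 fold change was -0.40 (SE 0.16, 95% interval -0.72 to -0.07; edgeR adjusted p = 0.0466), or 76% of the control level. The call sat at the threshold. It was lost with DESeq2 (adjusted p = 0.166), with RLE size factors (0.0519), with no filter on low counts (0.0779), without shControl replicate 1 (0.0873) and without shRALY replicate 1 or 2 (0.295 and 0.223). Its 3 tested neighbours within 100 kb did not move together. EEF1A1, a translation factor gene, stood at log2 -0.27 and the pseudogene RPL39P3, whose sequence is shared with other genes, at 0.39. MTO1, at 0.36, did not pass (edgeR adjusted p = 0.0677). The count of EEF1A1 is uncertain too, with 29.3% of its 50-base sequence words shared with other genes. The calls of EEF1A1 and RPL39P3 were lost without either shRALY library, that of RPL39P3 also with DESeq2, with library size alone and without shControl replicate 1. The CGAS difference stayed between log2 -0.45 and -0.36 under every alternative run.

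TMEM173, the STING gene (ENSG00000184584, chr5:139475534-139482935, minus strand), had few reads in this line. It had 16 and 11 counts in shControl and 16 and 22 in shRALY, or 0.893 and 0.646 CPM against 0.870 and 1.35 CPM. One shRALY library lay between the shControl libraries and the other above them. The log2 difference of 0.51 (SE 0.53) did not pass (edgeR adjusted p = 0.474), and its 95% interval of -0.58 to 1.60 spans falls as well as rises. None of its 5 tested neighbours within 100 kb passed the test; their log2 differences were -0.11 for SLC23A1, 0.09 for PROB1, -0.10 for SPATA24, 0.34 for DNAJC18 and 0.02 for UBE2D2, and all but that of DNAJC18 changed sign under some alternative.

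ENPP1 (ENSG00000197594, chr6:131808016-131895155, plus strand) had 147 and 112 counts in shControl and 140 and 114 in shRALY. Both shRALY libraries, at 7.62 and 6.97 CPM, lay between the shControl libraries at 8.21 and 6.58 CPM. The log2 difference was -0.02 (SE 0.21; edgeR adjusted p = 0.956) with a 95% interval of -0.46 to 0.42, and its sign changed when shControl replicate 1 or shRALY replicate 2 was left out. ENPP3, its paralog 60598 bases away, had 3, 4, 0 and 1 counts. The only tested neighbour of ENPP1 within 100 kb, CTGF, a growth factor-like matrix protein gene, rose from 32.2 ± 1.49 to 89.2 ± 0.088 CPM (edgeR adjusted p = 6.06e-10).

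Per length, the order of the genes changed between groups. Levels are CPM per kilobase of merged exons, which allows genes to be compared. In shControl CGAS came first at 4.60 ± 0.20, followed by ENPP1 at 0.742 ± 0.116 and IFI16 at 0.708 ± 0.296, which did not differ beyond their spread, then TMEM173 at 0.200 ± 0.0455 and ZBP1 at 0.0054 ± 0.0077. In shRALY IFI16 came first at 10.7 ± 0.39, ahead of CGAS at 3.50 ± 0.08 and ENPP1 at 0.732 ± 0.046. TMEM173 at 0.288 ± 0.087 and ZBP1 at 0.288 ± 0.119 came last and did not differ beyond their spread. Among 13161 tested protein-coding genes, IFI16 moved from rank 11140 to rank 3872 by level per kilobase, and CGAS from rank 6961 to rank 7776. TMEM173 stayed near the bottom, at rank 12458 in shControl and 12223 in shRALY.

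Likeness of pattern was measured as the Euclidean distance between log2 levels (CPM plus 0.5), each centred on the gene's own mean, over the 4 libraries and 9500 protein-coding genes of at least 10 CPM. Nearest to IFI16 were CXCL8 (distance 0.19), a chemokine gene that went from 2.53 to 38.4 CPM, FAM129A (0.24) and ICAM1 (0.28), an adhesion molecule gene. All 3 share with IFI16 the higher level in shControl replicate 1 than in replicate 2, but the distance selects for this, so it is no separate observation. All 3 were under 10 CPM in both shControl libraries and reached the minimum, a mean over the 4 libraries, through shRALY alone. Nearest to CGAS were LPCAT2, RC3H2 and GALNT11, at distances of 0.02 to 0.03 and log2 fold changes of -0.40, and all 3 calls were lost without either shRALY library, that of LPCAT2 also with DESeq2. Nearest to ZBP1 were BTN3A1, ZNF467 and TRIM21, at 0.36 to 0.41. BTN3A1 and ZNF467, with shControl means of 6.26 and 9.84 CPM, likewise reached the minimum through their shRALY levels. The added 0.5 CPM holds down the change of a gene as low as ZBP1. The count of ICAM1 is uncertain, with 23.6% of its exonic bases covered on the opposite strand.

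List counts are to be read against the 20.6% of all tested genes that were higher and the 20.4% that were lower, and list medians against the -0.01 of all tested genes. Of 13 listed genes of the AIM2 inflammasome 5 were tested; 4 were higher in shRALY and none lower (by DESeq2, and at an unadjusted p under 0.05, likewise 4 and 0), while AIM2 itself had no reads. The list counted 4 higher and 1 lower without shControl replicate 2, where IL18 passed as lower (log2 -0.39), and 3 higher without shRALY replicate 2. The median log2 fold change was 0.87. All these counts include CASP1, which could only be called higher. Without CASP1, 4 were tested, 3 were higher and 0 lower, with a median of 0.68. CASP1, the caspase that matures interleukin-1 beta, had 1 and 0 counts in shControl and 74 and 82 in shRALY; the ratio was 157 with a 95% counting interval of 27.8 to 6238 (edgeR adjusted p = 9.39e-09), and the gene was tested through shRALY alone. PYCARD, which encodes ASC, rose from 8.95 ± 1.29 to 16.5 ± 0.39 CPM (edgeR adjusted p = 0.000343), but 59.7% of its exonic bases are overlapped on the opposite strand. CASP4, an inflammatory caspase that senses lipopolysaccharide, rose from 4.51 ± 0.85 to 8.26 ± 0.76 CPM. GSDMD, the pore-forming target of these caspases, rose 1.41-fold and did not pass without shRALY replicate 2 (adjusted p = 0.0757 by edgeR). IL18 did not pass (45.3 ± 11.9 and 40.6 ± 0.88 CPM), and IL1B had 3 to 10 counts per library.

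Of the other genes listed as cell death partners of ZBP1, 6 were tested, 5 were higher and 1 lower, with a median log2 fold change of 0.68, against 20.6% higher and 20.4% lower over all genes. MLKL, the executioner of necroptosis, had 25.2 and 20.5 CPM in shControl and 50.3 and 49.3 CPM in shRALY (log2 1.12, SE 0.13; edgeR adjusted p = 3.96e-07). CASP8, the apical caspase that restrains necroptosis, rose 1.74-fold, from 50.2 ± 7.04 to 87.5 ± 0.79 CPM, and the adaptor TICAM1 rose 2.08-fold. RIPK1 and FADD rose 1.44-fold and 1.47-fold; both calls were lost without shRALY replicate 2 (edgeR adjusted p = 0.056 and 0.08), and 54.9% of FADD exonic bases are covered on the opposite strand. Without shRALY replicate 2 the list, ZBP1 included, counted 4 higher and 0 lower. RIPK3, the kinase that links ZBP1 to MLKL, had 0 counts in every library, and CASP6 was the lower member (16 ± 2.27 and 10.7 ± 2.09 CPM), a call lost with DESeq2, without shControl replicate 1 and without shRALY replicate 2; both were picked out after their values were seen.

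**Figure D3:**
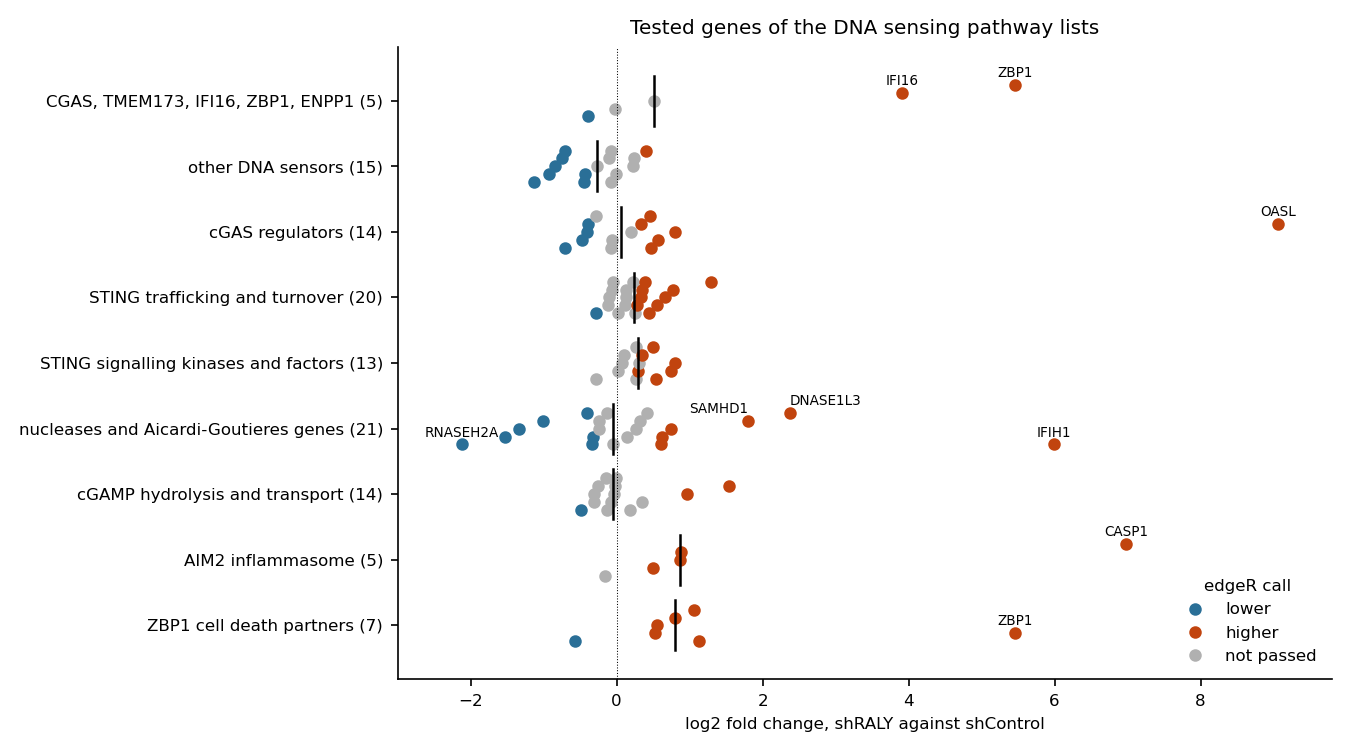
Log2 fold change (shRALY against shControl) of every tested gene in each pathway list, coloured by the edgeR call, with a black bar at the list's median and the number of tested genes in brackets; genes beyond 1.7 are labelled, and ZBP1 stands in 2 rows. The STING signalling row lies mostly to the right of 0 within 1 unit, the row of other DNA sensors mostly to the left, and OASL, CASP1, IFIH1, ZBP1 and IFI16 stand far to the right.

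Downstream of STING, neither the central kinase TBK1 nor the factor IRF3 passed the test. TBK1 had 929 and 681 counts in shControl and 1057 and 911 in shRALY, 51.9 and 40 CPM against 57.5 and 55.7 CPM. The groups did not overlap, and the log2 difference of 0.30 (95% interval 0.04 to 0.57) did not pass (edgeR adjusted p = 0.0652); it passed in 3 of the alternatives. IRF3 stood at 67.5 ± 5.07 and 71.3 ± 1.61 CPM (log2 0.08, interval -0.16 to 0.31) and the TBK1-related kinase IKBKE at 14.5 ± 1.65 and 17.4 ± 2.90 CPM (log2 0.26), and neither passed. Of the 13 listed kinases, adaptors and factors, all tested, 6 were higher and none lower (DESeq2 gave 6 and 0, and an unadjusted p under 0.05 gave 8 and 1), with a median of 0.29. TBKBP1 and TANK, adaptors of TBK1, rose 1.74-fold and 1.42-fold, and AZI2, a further adaptor, 1.45-fold; 55.4% of AZI2 exonic bases are covered on the opposite strand. STAT3 rose from 343 ± 28.7 to 575 ± 28.2 CPM (edgeR adjusted p = 3.47e-06). RELA and MAP3K14, of NF-kB signalling, rose 1.23-fold and 1.27-fold, and both calls were lost without either shRALY library and without shControl replicate 1, that of RELA also with library size alone. Without shRALY replicate 2 the list counted 2 higher, with the calls of TANK and AZI2 also lost.

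Part of the genes that carry and hold STING rose, while STING mRNA was low in both groups. Of 20 listed genes of STING trafficking and turnover, all tested, 9 were higher and 1 lower, with a median log2 fold change of 0.24; without shRALY replicate 1 and replicate 2 the counts were 5 and 4 higher, with 0 lower in each. RHBDF2, which encodes iRhom2, an ER protein that stabilises STING, rose most, from 70.2 and 78.4 CPM to 175 and 189 CPM (log2 1.29, SE 0.11; edgeR adjusted p = 2.42e-09). The cargo receptor genes TMED10 and TMED2 rose 1.71-fold and 1.36-fold, SAR1A, a GTPase of the vesicle coat, 1.59-fold and INSIG1, which works with a ubiquitin ligase of STING, 1.46-fold. SURF4, which returns STING from the Golgi, and STIM1, which holds it in the ER, rose 1.21-fold and 1.31-fold. The calls of TMED2, SURF4 and STIM1 were lost without either shRALY library, that of SURF4 also with library size alone. NPC1, picked out after its value was seen, was the lower member (204 ± 7.03 and 169 ± 5.62 CPM, edgeR adjusted p = 0.0358). Its call was lost with no filter on low counts and without either shRALY library.

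Regulators of cGAS moved in both directions. Of 14 listed genes, all tested, 6 were higher and 4 lower, with a median of 0.06. OASL, which binds and inhibits cGAS, had 13 and 15 counts in shControl and 7123 and 7755 in shRALY, a 533-fold rise (edgeR adjusted p = 1.27e-19). TRIM14, which protects cGAS from degradation, rose from 45.7 ± 6.44 to 79.5 ± 3.71 CPM, and RNF185, a ubiquitin ligase of cGAS, rose 1.48-fold, which did not hold without shRALY replicate 2. BANF1, which coats DNA and keeps cGAS from it in the nucleus, fell from 176 ± 4.75 to 134 ± 3.55 CPM (log2 -0.40; edgeR adjusted p = 0.00389), which did not hold without either shRALY library. G3BP1, which helps cGAS bind DNA, fell 1.38-fold and did not pass without shRALY replicate 1 (adjusted p = 0.0939 by edgeR), and PARP1 fell 1.64-fold, from 249 ± 2.76 to 152 ± 9.19 CPM. Without shRALY replicate 1 the list counted 5 higher and 1 lower, and without shRALY replicate 2 it counted 2 and 2.

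Of 18 other genes whose proteins are reported to sense DNA 15 were tested, 1 was higher and 7 were lower, with a median log2 fold change of -0.27; over all genes 20.6% were higher and 20.4% lower. PRKDC, the catalytic subunit of the DNA-dependent protein kinase, had 814 and 864 CPM in shControl and 441 and 493 CPM in shRALY (log2 -0.85, SE 0.10; edgeR adjusted p = 4.31e-07). HMGB1, a chromatin protein that bends DNA, fell 2.20-fold, MRE11, the nuclease of the break repair complex, 1.90-fold, HNRNPA2B1 1.68-fold and the helicase gene DHX9 1.64-fold. XRCC6, which encodes Ku70, fell 1.35-fold, a call lost without either shRALY library. POLR3A, a subunit of RNA polymerase III, was the higher member at log2 0.41 and was picked out after its value was seen. The list counted 3 higher and 8 lower without shControl replicate 1, 0 and 6 without shRALY replicate 1, and 0 and 5 without shRALY replicate 2.

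A further list held nucleases that clear nucleic acids and the genes mutated in Aicardi-Goutieres syndrome, an inherited interferon disease. Of 24 listed genes, TREX1 included, 21 were tested, 6 were higher and 7 lower, with a median of -0.05, where genes in general were 20.6% higher and 20.4% lower; without shRALY replicate 1 and replicate 2 the lower counts were 2 and 3, and with DESeq2 4. SAMHD1, which degrades deoxynucleotides, had 40 and 42.3 CPM in shControl and 139 and 149 CPM in shRALY (log2 1.81, SE 0.11; edgeR adjusted p = 1.07e-11). IFIH1, which encodes the RNA sensor MDA5, rose 63.7-fold, PLD3, a lysosomal exonuclease, 1.67-fold and the RNA-editing enzyme gene ADAR 1.52-fold. SLX4, a scaffold of structure-specific nucleases, fell 2.53-fold and SET, an inhibitor of granzyme-activated nuclease, 2.01-fold. The RNase H2 subunits could be read only in part: RNASEH2B did not pass (23.3 ± 1.68 and 19.6 ± 0.24 CPM), RNASEH2C fell 1.33-fold with 28.2% opposite-strand overlap, and RNASEH2A had 20 and 16 counts against 3 and 5. RNASEH2A passed the filter on low counts through shControl alone, so it could only be called lower. Without RNASEH2A and DNASE1L3, which also had under 10 counts in both libraries of 1 group, 19 were tested, 5 were higher and 6 lower. RNASEH2A shares 30.8% of its exonic bases with a same-strand gene, and its call (edgeR adjusted p = 0.0151) was lost with DESeq2 and without any of the 4 libraries; that of RNASEH2C was lost with DESeq2 and without either shRALY library. TREX2, the paralog of TREX1, had 55 and 42 counts against 14 and 19 (edgeR adjusted p = 0.00378), but 52.1% of its exonic bases lie in a same-strand gene, and the call was lost without shRALY replicate 1.

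Of 17 listed genes that move or degrade cGAMP, ENPP1 included, 14 were tested, 2 were higher and 1 lower, with a median of -0.06; 41.0% of all tested genes were called. The counts were 2 and 2 with library size alone and without shControl replicate 1, and 2 and 0 without either shRALY library. NT5E, the ectonucleotidase CD73 that acts on AMP, one of the products of cGAMP hydrolysis, rose from 35.7 and 38.2 CPM to 103 and 112 CPM (log2 1.54, SE 0.12; edgeR adjusted p = 2.50e-10). GJA1, which encodes connexin 43 and forms channels between cells, rose 1.95-fold, from 88.1 ± 6.63 to 172 ± 0.81 CPM. SLC19A1, a folate carrier that imports cGAMP, fell 1.41-fold, from 48.6 ± 1.16 to 34.5 ± 0.69 CPM (edgeR adjusted p = 0.00218), which likewise did not hold without either shRALY library. ABCC1, an exporter of cGAMP, stood at 595 ± 94.7 and 590 ± 56.3 CPM, and SMPDL3A, a further cGAMP hydrolase, at 1.74 ± 0.06 and 2.23 ± 0.31 CPM; neither passed.

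**Figure D4:**
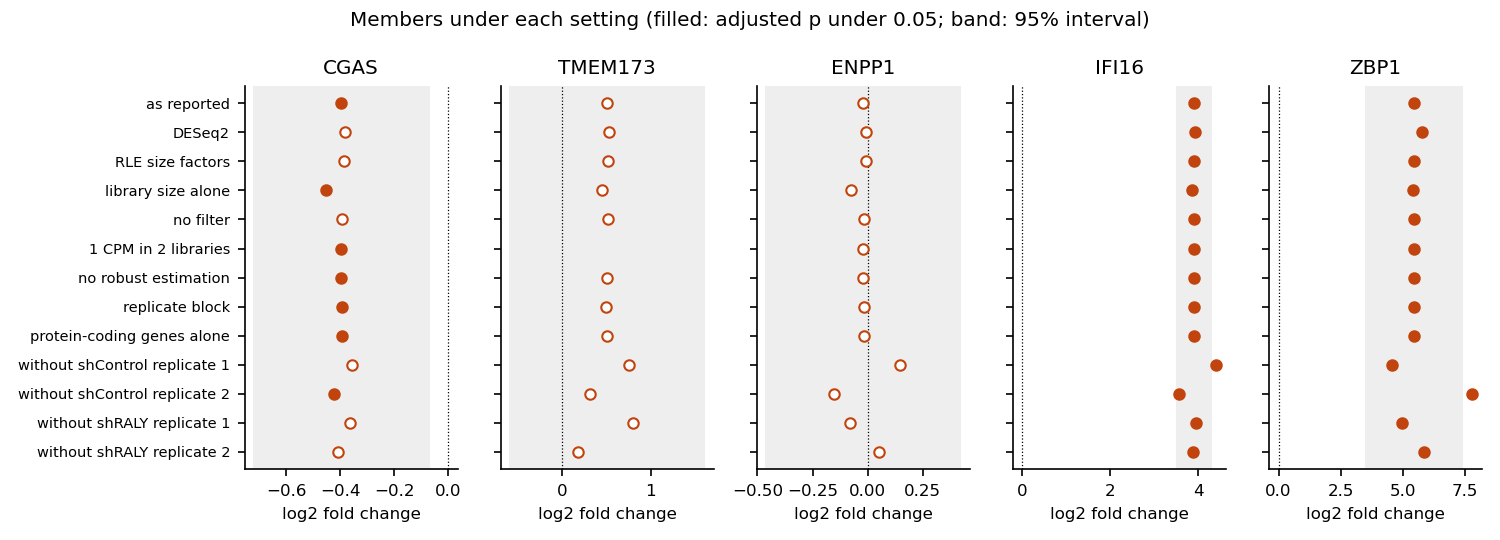
Log2 fold change (shRALY against shControl) of the 5 tested genes under the reported setting and each alternative, filled where the adjusted p was under 0.05, with the reported 95% interval as a grey band. IFI16 and ZBP1 are filled in every row, TMEM173 and ENPP1 in none, and CGAS keeps its place near -0.40 while its call comes and goes; TMEM173 is not tested under the filter of 1 CPM.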

How the data were processed

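The authors deposited raw counts for each Ensembl gene, with 1 file for every library. The submitters' processing notes name HISAT2 2.0.5, featureCounts 1.5.0-p3, DESeq2 1.20.0 and hg38, without role or order. Annotation release, strand setting and handling of reads in overlapping genes: not given in the sources used here. Per the labels' protocols, RNA was selected on poly-T beads. All 58735 identifiers matched GENCODE release 29 (GRCh38), the source of symbols, exons and coordinates.

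The counts entered edgeR 4.0.16 (R 4.3.3): filterByExpr with a minimum count of 10 and total of 15, TMM, and a robust quasi-likelihood F-test, without covariates (2 residual degrees of freedom). Benjamini-Hochberg adjustment covered 15912 genes, with calls at 0.05. Standard errors were taken from log2 fold change and F. Counting intervals are exact binomial and, like the limit of 3 counts, cover counting error only. Tested on simulated data of this comparison (15833 genes), edgeR found 25.4%, 91% and 98.5% of changes of log2 0.5, 1 and 2, with 4.67% false calls. Only 67, 67 and 66 genes were changed, none with few counts, and the simulated dispersion was the same for all genes. The rates need not hold for genes with few reads, such as ZBP1 and TMEM173, or where 41.0% of genes are called. Counts are called uncertain where over 20% of a gene's exonic bases, or of its 50-base words, belong to another gene.

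The 7 genes and all lists were chosen with earlier results of these data known. Each list is named by up to 6 members of smallest adjusted p and the 2 most abundant, with key kinases, nucleases, transporters and paralogs in any case, tested neighbours within 100 kb and the 3 genes nearest in pattern. The 12 alternatives were DESeq2 1.42.0, RLE factors, unscaled library size, 2 other filters, no robust estimation, a replicate block, protein-coding genes only, and each library left out. Leaving out list genes under 10 counts in both libraries of 1 group was chosen after seeing the data.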

Additional observations from a re-analysis of the deposited data

How the results depend on the processing

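IFI16 stayed higher and past the threshold under all 12 alternatives. ZBP1 did so too, but passed the filter through shRALY alone, so its direction shows no stability. None of the named genes that were called changed sign. The lower call of CGAS, and with it the count of 1 lower gene among the 5, went to 0 with DESeq2 (log2 -0.38), with RLE size factors (-0.39, edgeR adjusted p = 0.0519), with no filter on low counts (-0.39) and in 3 of the 4 fits that leave out a library (range over the 4, -0.42 to -0.36). Over all genes, leaving out a library gave 2040 to 3559 higher and 1897 to 3499 lower, against 3274 and 3245. A fit without a library leaves 1 group with 1 sample, which is then assumed to vary like the other group. Of 95 named genes with a test, 73 were called; 43 of these kept the call throughout and 30 lost it under at least 1 alternative, while 6 of 22 uncalled genes passed under at least 1. Signs changed in 10 uncalled genes, and the cause was not tested. Leaving out a library gave ranges across 0 of -0.15 to 0.15 for ENPP1, -0.17 to 0.17 for ABCC1, -0.39 to 0.14 for IL18, -0.045 to 0.15 for KRT8, -0.50 to 0.14 for CD14, -0.00040 to 0.17 for IRF3, -0.28 to 0.054 for SLC23A1, -0.12 to 0.35 for PROB1, -0.25 to 0.085 for SPATA24 and -0.0055 to 0.049 for UBE2D2. Library size alone gave -0.0094 for KRT8 and -0.040 for UBE2D2, and DESeq2 gave 0.00064 for ABCC1. With the replicate number as a block, 3639 genes were higher and 3619 lower; deviations of same-numbered libraries correlated at 0.13 over genes, but the labels do not pair the samples. The block changed no call among the 7 genes (CGAS adjusted p = 0.0291).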
